A study of Mus musculus with 40 samples.

Results

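Levels of 10 genes of the BMP-SMAD pathway were followed in the livers of 40 male mice: the ligand gene Bmp6, the inhibitor of DNA binding genes Id1, Id2, Id3 and Id4, the inhibitory SMAD genes Smad6 and Smad7, the transcription factor gene Atoh8, and the hepcidin genes Hamp and Hamp2. They were 10 of the 40239 genes listed in both count tables once rRNA genes were removed, and all 10 were among the 12942 genes that passed a filter of 1 CPM or more (counts scaled to the library's total) in 5 or more mice. Id4 passed it through 9 KO mice and no WT mouse, and the other 9 genes reached 1 CPM in all 40 mice. The genes were chosen by name, with their levels in the 8 groups and the contrasts within genotype already known, so those levels and contrasts are given as a description and not as independent tests.

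Wildtype (WT) C57BL6/J mice and liver-specific PPARγ knockout (KO) mice, both aged 5 months, received 1 of 4 diets, with 5 mice in each of the 8 groups. The diets were a control diet ("control"), the control diet with pioglitazone ("Pio"), a high-fat diet ("HFD") and the high-fat diet with pioglitazone ("HFD-Pio"). Pioglitazone is a thiazolidinedione that activates the nuclear receptor PPARγ. In the KO mice a loxP-flanked Pparg gene was removed by a Cre recombinase under the albumin promoter, which acts in hepatocytes. Which other liver cells kept the gene was not tested. The WT mice carried neither allele as far as the methods describe them. The WT and KO counts came as 2 tables, so that an effect of genotype and an effect of the table cannot be told apart, and no WT mouse was tested directly against a KO mouse. Groups were compared within a genotype, and genotypes only through the difference between their responses.

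Bone morphogenetic proteins (BMPs) are secreted ligands that bind receptor kinases at the cell surface. The receptors phosphorylate SMAD1, SMAD5 and SMAD9, which join SMAD4 and switch on target genes in the nucleus. In the liver, BMP6 comes mainly from sinusoidal endothelial cells and acts on hepatocytes, where it drives hepcidin, the peptide hormone that limits iron export into the blood. The Id genes, Smad6, Smad7 and Atoh8 are common readouts of the same signal in several liver cell types. SMAD6 and SMAD7 feed back to dampen the pathway, and the ID proteins hold basic helix-loop-helix factors away from DNA. Mice have a pair of hepcidin genes, and Hamp encodes the iron-regulating peptide.

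Total counts ranged from 15788242 to 49857017 in the WT mice and from 21542958 to 28334251 in the KO mice. KO Pio mouse 13 stood apart from the other 39 mice. Of all tested genes, 64.2% differed by at least 2-fold between it and the median of the other 4 KO Pio mice. Its summed hepatocyte marker level was 32809 CPM against at least 69185 CPM in every other mouse, its albumin (Alb) level was 10663 CPM against at least 45240 CPM, and its difference from its group rose with the GC content of the gene. Calls in comparisons that use the KO Pio mice are therefore given with and without this mouse, and other differences are from all 40 mice unless stated. The tissue label held in the other mice, in which Alb reached up to 109384 CPM, while the adipocyte genes Adipoq and Lep stayed at or below 0.670 and 0.164 CPM in all 40 mice. The level of Pparg over its whole gene was 8.59 ± 2.05 CPM (SD, n = 5) in WT control and 7.36 ± 2.44 CPM (SD, n = 5) in KO control livers, and reads outside the deleted part still count towards it, so it does not check the genotype. The data are from whole liver, in which fewer cells of a type and less RNA per cell cannot be told apart.

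A set of 3 promoters is shown. Those of Hamp2 and Id3 are given because these genes carry the main differences below. That of Hamp is given because Hamp and Hamp2, which lie next to each other on chromosome 7, differ at a SMAD motif. Each sequence runs from 250 bases before to 50 bases after the RefSeq start site, 5′ to 3′, on build GRCm38.p6. Capitals mark the GC-rich SMAD1/5 motif GGCGCC, the SMAD motif CAGAC (or GTCTG on the other strand) and the STAT motif TTCNNNGAA, and no marked stretch overlaps another.
Hamp, minus strand, chr7:30943980-30944279: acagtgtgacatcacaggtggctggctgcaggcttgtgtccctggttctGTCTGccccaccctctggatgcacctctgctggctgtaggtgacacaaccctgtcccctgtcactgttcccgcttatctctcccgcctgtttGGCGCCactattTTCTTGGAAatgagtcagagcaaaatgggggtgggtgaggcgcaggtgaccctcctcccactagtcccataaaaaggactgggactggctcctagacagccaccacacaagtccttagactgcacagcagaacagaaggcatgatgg
Hamp2, minus strand, chr7:30924132-30924431: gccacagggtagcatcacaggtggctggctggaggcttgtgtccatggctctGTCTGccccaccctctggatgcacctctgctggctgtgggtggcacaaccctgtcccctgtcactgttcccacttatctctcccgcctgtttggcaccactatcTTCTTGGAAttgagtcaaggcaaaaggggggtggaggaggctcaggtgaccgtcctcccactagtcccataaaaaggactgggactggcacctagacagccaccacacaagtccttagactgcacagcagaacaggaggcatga
Id3, plus strand, chr4:136143572-136143871: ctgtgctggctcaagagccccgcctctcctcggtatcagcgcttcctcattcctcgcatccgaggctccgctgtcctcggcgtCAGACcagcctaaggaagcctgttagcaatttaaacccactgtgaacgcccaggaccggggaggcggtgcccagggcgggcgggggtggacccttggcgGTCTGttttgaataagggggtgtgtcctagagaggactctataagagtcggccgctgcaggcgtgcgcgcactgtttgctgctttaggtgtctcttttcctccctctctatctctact

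The Hamp promoter held all 3 motifs, with GGCGCC at bases 142 to 147 and the STAT motif TTCTTGGAA at bases 154 to 162, counted from 1 at the 5′ end of the printed sequence. The Hamp2 promoter aligned to it over 297 bases, of which 276 (92.9%) were identical. Of the 21 substitutions, 1 fell in the GC-rich motif: G145A, with Hamp as the reference and positions counted along its printed sequence, turns GGCGCC into GGCACC. The STAT motif and GTCTG were present in both. The Id3 promoter held CAGAC at bases 84 to 88 and GTCTG at bases 183 to 187, and neither of the other motifs. Promoters of 8 of the 9 members looked up were found, all but that of Id1. Among these 8, GGCGCC was present in Hamp, Id2 and Id4, CAGAC in Id3, Hamp, Hamp2 and Bmp6, and TTCNNNGAA in Hamp and Hamp2. Over 32851 RefSeq promoters of the same length, 11.9% held GGCGCC, 49.6% held CAGAC on either strand and 8.3% held TTCNNNGAA. These are matches of letters, and binding was not measured here.

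By the GENCODE M21 annotation of build GRCm38, Hamp lies at chr7:30942368-30944032 and Hamp2 at chr7:30922372-30924681, both on the minus strand. Id1 lies at chr2:152736251-152737410 and Id3 at chr4:136143497-136145755 on the plus strand, and Atoh8 at chr6:72206177-72235577 on the minus strand. Counts are over the exons of each gene. Per kilobase of exon, and as the median over the 39 mice other than KO Pio mouse 13, Hamp was the most abundant of the 10 genes at 909 CPM per kilobase. Hamp2 followed at 51.3, Id2 at 26.0, Id3 at 12.2, Atoh8 at 11.6 and Id1 at 4.90 CPM per kilobase. Smad7 stood at 2.74, Smad6 at 2.34, Bmp6 at 0.806 and Id4 at 0.181 CPM per kilobase. The ranges of neighbours in this order overlapped down to Smad6, while those of Smad6 and Bmp6 (1.54 to 3.73 and 0.416 to 1.38) and of Bmp6 and Id4 (at most 0.363) did not. Hamp spanned 67.9 to 5668 CPM per kilobase and Hamp2 2.50 to 483, and the nearest pair, Id3 and Atoh8, spanned 5.21 to 25.3 and 6.50 to 20.4. Reads were counted only where they aligned uniquely and unambiguously. Of the 361 stretches of 50 bases in the Hamp transcript, 60 (16.6%) also occur in a Hamp2 transcript. Reads that lie wholly within shared sequence would align to both genes and not be counted. How many did so depends on the read length, which was not examined, and the levels of this gene pair carry that uncertainty. Id4 overlaps the antisense gene A330033J07Rik and Bmp6 overlaps Txndc5 on the other strand. The strand setting of the counting is not given in the sources used here, so reads over those overlaps could not be assigned by strand.

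**Figure D1:**
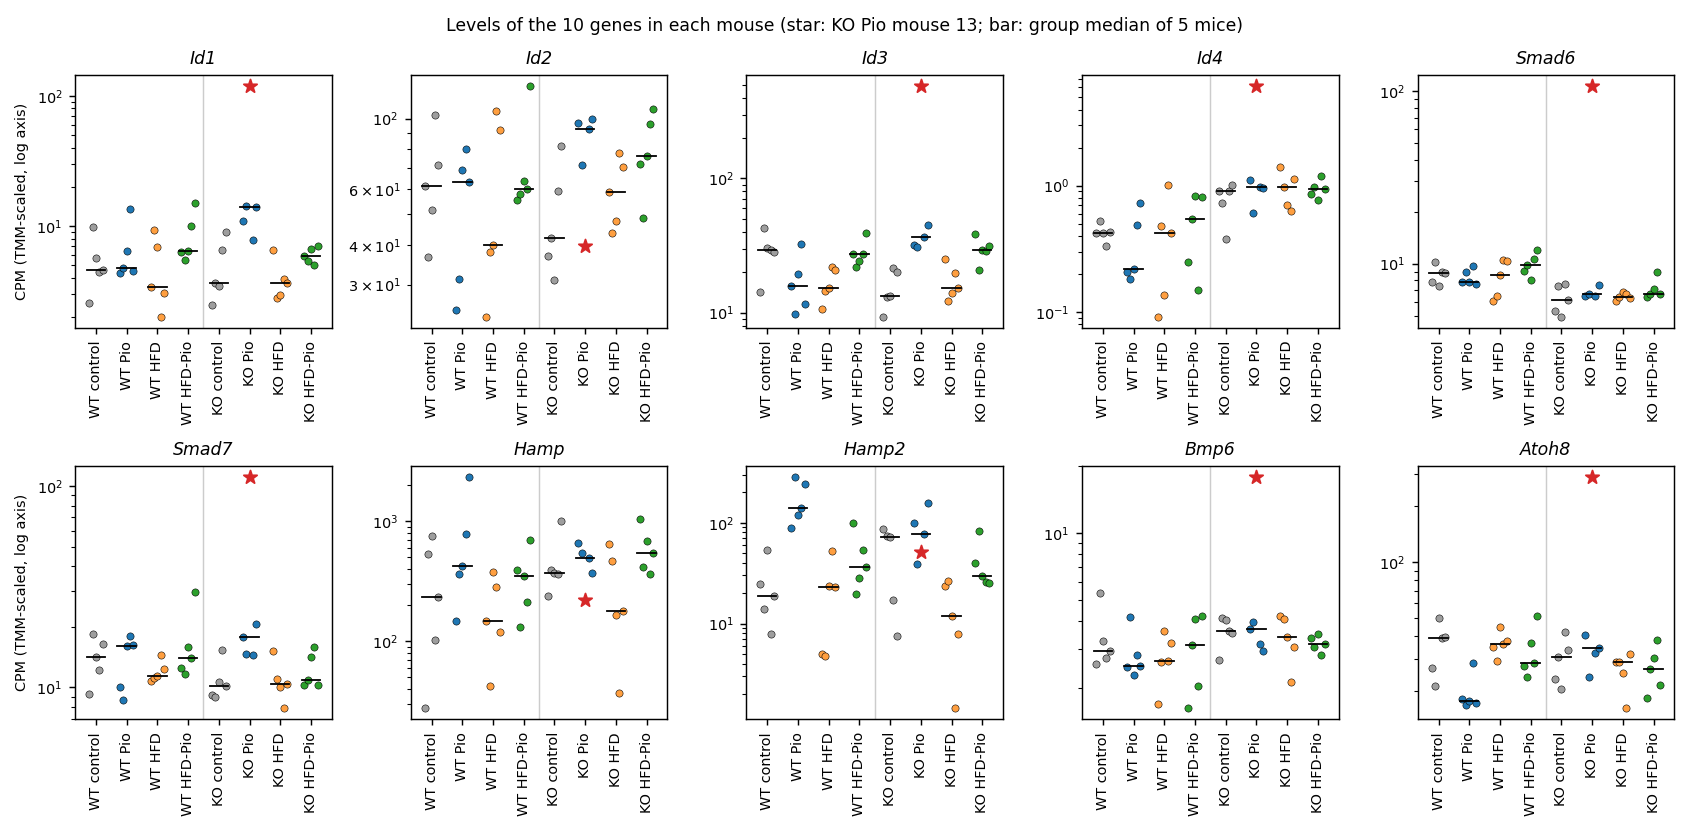
Levels of the 10 genes in each mouse, in TMM-scaled CPM on a log axis, for the 4 diets in WT and KO mice; points are mice, bars are group medians of 5 mice and the star is KO Pio mouse 13. Mouse 13 is the highest of all 40 mice for Id1, Id3, Id4, Smad6, Smad7, Bmp6 and Atoh8, and the 5 WT Pio mice all lie above the 5 WT control mice for Hamp2.

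Pio on control diet in WT livers was the comparison in which a hepcidin gene stood out. Hamp2 was higher by 2.89 ± 0.69 on the log2 scale (fold change ± SE), while Hamp, the Id genes, Smad6, Smad7, Bmp6 and Atoh8 were not called. A gene was called where the adjusted p of edgeR's quasi-likelihood test over all tested genes was at most 0.05. Of the 10 members, 1 was called among WT Pio and WT control mice, where 3.91% of all tested genes were called, and 2 were called without KO Pio mouse 13, where 15.6% were called. The second was Atoh8, which was lower by 0.82 ± 0.23 (SE) on the log2 scale in that fit.

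The Hamp2 level was 24.5, 13.8, 53.2, 7.87 and 18.6 CPM in WT control mice 831 to 835. In WT Pio mice 841 to 845 it was 88.3, 282, 121, 141 and 241 CPM. The WT Pio and WT control mice did not overlap, with means of 174 ± 82.8 and 23.6 ± 17.6 CPM (SD, n = 5 each). Hamp2 was the 1 member of 10 without overlap there, beside 7.53% of all tested genes. In WT HFD mice 826 to 830 the level was 4.95, 4.75, 23.6, 52.1 and 23.1 CPM, and in WT HFD-Pio mice 836 to 840 it was 100, 19.6, 28.3, 53.8 and 36.3 CPM. These last groups overlapped, and the log2 difference between them, 1.14 ± 0.65 (SE), was not called. The Pio response of Hamp2 on HFD minus that on control diet was -1.76 ± 0.92 (SE) on the log2 scale in WT mice and was not called either. WT HFD-Pio mice were lower than WT Pio mice by 1.87 ± 0.66 (SE) on the log2 scale, which was not called by edgeR, and limma with sample quality weights, the method of the study, called this difference at -1.75.

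Hamp, the gene of the iron-regulating peptide, varied widely from mouse to mouse. Its level was 27.8, 532, 755, 102 and 232 CPM in WT control mice 831 to 835 and 146, 367, 424, 783 and 2324 CPM in WT Pio mice 841 to 845. These groups overlapped, and the highest value of all 40 mice, in WT Pio mouse 845, lay in this group. The log2 difference was 1.29 ± 0.69 (SE) and was not called by edgeR, while limma with sample quality weights called it at 1.78. Those weights were unequal among the WT mice, at 0.1485 for WT control mouse 832, 2.742 for WT control mouse 834 and 0.3078 for WT Pio mouse 845. With 1 mouse left out at a time, the edgeR difference ranged from 0.38, without WT Pio mouse 845, to 1.84, without WT control mouse 833, and it was called in none of these fits. In the WT HFD mice Hamp ranged from 42.2 to 380 CPM with a median of 147, and in the WT HFD-Pio mice from 132 to 698 CPM with a median of 349. The log2 difference of these overlapping groups, 0.87 ± 0.69 (SE), was not called.

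In KO livers neither hepcidin gene was called in any of the 4 comparisons. Hamp2 was 87.1, 73.0, 71.9, 17.3 and 7.46 CPM in KO control mice 1 to 5, and 98.9, 38.7, 51.5, 77.8 and 158 CPM in KO Pio mice 11 to 15. The groups overlapped, with a log2 difference of 0.73 ± 0.64 (SE), and of 0.88 ± 0.69 (SE) without mouse 13. In KO HFD mice 6 to 10 it was 23.7, 26.6, 11.7, 1.46 and 7.96 CPM, and in KO HFD-Pio mice 16 to 20 it was 39.9, 83.0, 29.9, 25.9 and 25.1 CPM. KO HFD mice were lower than KO control mice by 1.85 ± 0.66 (SE) on the log2 scale, which was not called, and the KO HFD and KO HFD-Pio ranges met between 25.1 and 26.6 CPM.

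Hamp in KO livers ranged from 237 to 1003 CPM in control, 222 to 666 in Pio, 37.2 to 645 in HFD and 361 to 1053 in HFD-Pio mice, and these ranges overlapped for each of the compared pairs. KO HFD mouse 9 had the lowest Hamp2 level of all 40 mice and the lowest Hamp level of the KO mice. The same mouse had the highest levels of the acute-phase genes Saa1, 13716 CPM, and Lcn2, 2705 CPM, against a median of 67.9 and 24.9 CPM over the 39 mice other than mouse 13, and the part of this in its hepcidin levels was not tested. The difference in the Hamp2 response to Pio on control diet, KO minus WT, was -2.17 ± 0.92 (SE) on the log2 scale, and it was not called with or without mouse 13.

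**Figure D2:**
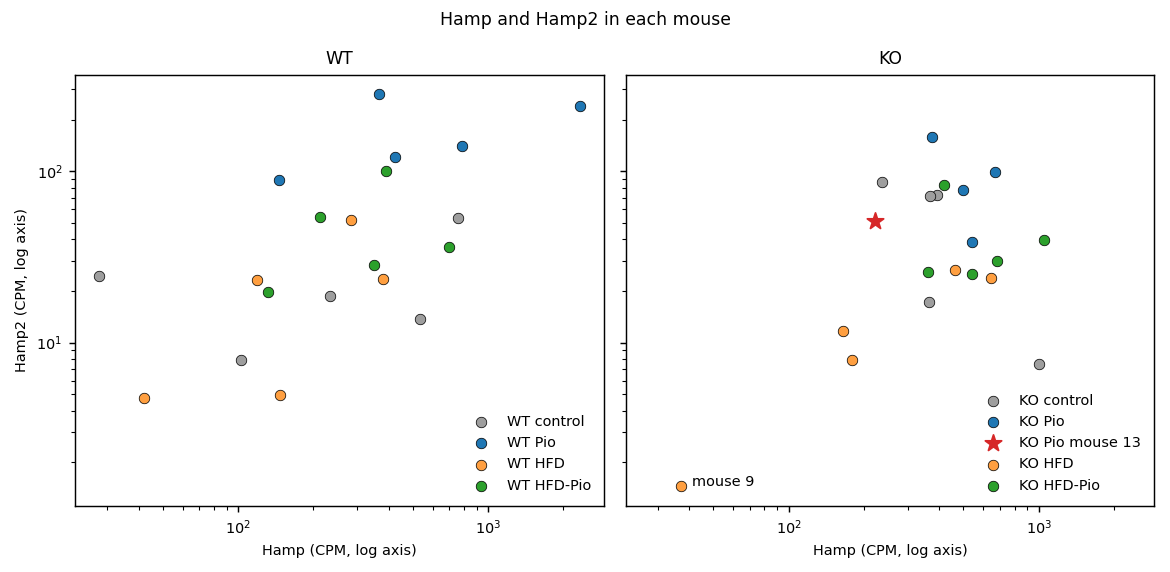
Hamp (horizontal) against Hamp2 (vertical) in each mouse, both in TMM-scaled CPM on log axes, WT on the left and KO on the right, coloured by diet, with KO Pio mouse 13 as a star. The WT Pio mice hold the highest WT Hamp2 levels apart from the WT HFD-Pio mouse at 100 CPM, and KO HFD mouse 9 is lowest for both genes in the KO panel at 37.2 and 1.46 CPM.

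Among KO Pio and KO control mice, 4 of the 5 calls made with all mice were lost without mouse 13. With all mice, Id1, Id3, Smad6, Smad7 and Atoh8 were called higher in KO Pio than in KO control mice, at log2 differences of 2.72 ± 0.55, 3.04 ± 0.53, 2.09 ± 0.48, 1.71 ± 0.38 and 1.48 ± 0.42 (SE). These were 5 of the 10 members, beside 9.01% of all tested genes. Without mouse 13, 1 of the 10 members was called, beside 0.512% of all tested genes. That gene was Id3, at 1.25 ± 0.29 (SE). The difference of Id1 was then 1.24 ± 0.40, of Smad7 0.66 ± 0.24, of Smad6 0.13 ± 0.15 and of Atoh8 0.15 ± 0.24 (SE) on the log2 scale, and none of these 4 was called. With mouse 13 but fitted on the KO mice alone, edgeR called 0 of 10 members, with 8 at an unadjusted p under 0.05.

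Id3 encodes an inhibitor of basic helix-loop-helix factors. Its level was 9.32, 13.1, 13.2, 21.3 and 19.9 CPM in KO control mice 1 to 5 and 31.9, 30.7, 489, 36.9 and 45.2 CPM in KO Pio mice 11 to 15. All KO Pio mice lay above all KO control mice, with or without mouse 13, and the 4 others had a mean of 36.2 ± 6.60 CPM (SD, n = 4) against 15.4 ± 5.07 CPM (SD, n = 5). With all mice, Id3 was the 1 member of 10 whose groups did not overlap, beside 3.7% of all tested genes. In KO HFD mice 6 to 10 the level was 24.9, 12.3, 13.9, 19.9 and 15.2 CPM, and in KO HFD-Pio mice 16 to 20 it was 38.4, 20.8, 29.2, 28.8 and 31.2 CPM. These groups overlapped between 20.8 and 24.9 CPM, and the log2 difference of 0.79 ± 0.50 (SE) was not called, nor was that of 0.78 ± 0.28 (SE) without mouse 13.

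In WT livers Id3 did not follow the same order. It was 14.1, 42.8, 30.3, 29.2 and 28.4 CPM in WT control mice 831 to 835, and 15.7, 9.71, 19.5, 32.3 and 11.5 CPM in WT Pio mice 841 to 845. WT Pio mice were thus lower on average, with overlapping groups and a log2 difference of -0.71 ± 0.50 (SE) that was not called. On HFD the order turned: the level was 10.6, 14.5, 15.3, 21.88 and 20.7 CPM in WT HFD mice 826 to 830 and 27.4, 21.99, 24.3, 27.3 and 39.4 CPM in WT HFD-Pio mice 836 to 840. The highest WT HFD and the lowest WT HFD-Pio mouse lay next to each other but the groups did not overlap, and the log2 difference of 0.76 ± 0.50 (SE) was not called. No overlap was seen for 1 of the 10 members in this comparison, beside 7.12% of all tested genes. Without mouse 13, the Pio response of Id3 on HFD minus that on control diet in WT mice was 1.48 ± 0.39 (SE) and was called, and with all mice it was 1.47 ± 0.71 (SE) and was not. EdgeR on the WT mice alone and limma with all mice did not call it either, and DESeq2 gave no adjusted p for it. The Pio response of Id3 on control diet, KO minus WT, was called both with mouse 13, at 3.75 ± 0.72, and without it, at 1.96 ± 0.40 (SE).

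Id1, the Id gene most often read as a BMP target, had a higher median in KO Pio livers also when mouse 13 was left out, at 12.5 against 3.69 CPM in KO control livers. It was 2.50, 3.69, 3.46, 6.57 and 8.99 CPM in KO control mice 1 to 5 and 10.9, 14.4, 119, 7.88 and 14.0 CPM in KO Pio mice 11 to 15. The groups overlapped, since KO Pio mouse 14 lay below KO control mouse 5. In KO HFD-Pio mice 16 to 20 it was 5.90, 5.45, 6.68, 5.00 and 7.08 CPM, below every KO Pio mouse, and in the KO HFD mice it ranged from 2.81 to 6.61 CPM. Id1 was the 1 member of 10 without overlap between KO HFD-Pio and KO Pio mice, beside 2.43% of all tested genes. In WT mice the medians were 4.58 CPM in control, 4.76 in Pio, 3.39 in HFD and 6.42 in HFD-Pio, all within overlapping ranges, and no WT comparison of Id1 was called. Limma with sample quality weights, which gave mouse 13 a weight of 0.0157, called Id1 in KO Pio mice at 1.52, Id3 at 1.49, Id2 at 1.10 and Smad7 at 0.76 on the log2 scale.

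Id2 and Id4, the remaining inhibitor genes, were not called by edgeR in any comparison with all mice or without mouse 13. Limma with sample quality weights called Id2 in KO Pio mice, as given above. It also called the Pio response of Id2 on control diet, KO minus WT, at 1.47 on the log2 scale. Id2 ranged from 31.1 to 82.2 CPM with a median of 41.9 in KO control mice and from 71.4 to 99.4 CPM in the KO Pio mice other than mouse 13, which was at 39.7 CPM. These ranges overlapped, with a log2 difference of 0.67 ± 0.36 (SE), or 0.86 ± 0.37 (SE) without mouse 13. In WT mice Id2 lay between 23.8 and 127 CPM, and its largest log2 difference between compared groups was 0.44 ± 0.36 (SE), between WT HFD-Pio and WT Pio mice. Id4 was near the limit of detection, at 0.0917 to 1.01 CPM in WT mice and 0.380 to 1.4 CPM in the KO mice other than mouse 13, which was at 6.14 CPM. Its lowest count in a library was 2, so differences in Id4 were hardly detectable at this depth.

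Neither inhibitory SMAD gene was called by edgeR without mouse 13, while limma with sample quality weights called Smad7 in KO Pio mice, as given above. Smad6 was 6.52, 6.68, 107, 6.46 and 7.49 CPM in KO Pio mice 11 to 15, and 5.32, 7.38, 4.93, 7.61 and 6.17 CPM in KO control mice 1 to 5. The 4 other KO Pio mice lay within the range of the KO control mice. Smad7 was 17.8, 14.6, 111, 14.4 and 20.6 CPM in the KO Pio mice and 9.17, 8.98, 10.7, 15.3 and 10.2 CPM in the KO control mice. Here the 4 other mice overlapped with KO control mouse 4 and lay above the remaining 4. In WT mice Smad6 lay between 6.10 and 11.9 CPM and Smad7 between 8.66 and 29.9 CPM, and neither was called in any WT comparison.

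Atoh8, a basic helix-loop-helix factor that responds to BMP6 and to iron in liver, was called lower in WT Pio than in WT control mice in some of the fits. EdgeR called it without mouse 13 and on the WT mice alone, at -0.84 on the log2 scale, and limma with sample quality weights called it with all 40 mice, at -0.86. EdgeR and DESeq2 with all 40 mice did not call it, at -0.83 and -0.82. It was 26.7, 21.3, 49.6, 38.8 and 39.2 CPM in WT control mice 831 to 835 and 18.2, 16.8, 17.8, 28.5 and 17.4 CPM in WT Pio mice 841 to 845. Of the WT Pio mice, 4 lay below every WT control mouse and mouse 844 lay among them. WT HFD mice ranged from 29.2 to 44.8 CPM and WT HFD-Pio mice from 23.8 to 51.2 CPM, with medians of 36.1 and 28.5. WT HFD-Pio mice were higher than WT Pio mice by 0.75 ± 0.23 (SE) on the log2 scale, which was called without mouse 13, and by 0.76 ± 0.41 (SE) with it, which was not. Leaving out mouse 13, a KO mouse, moves the WT errors because a shared spread is estimated over all groups, and the common dispersion fell from 0.0850 to 0.0506. In KO mice other than mouse 13, which was at 287 CPM, Atoh8 lay between 16.3 and 41.7 CPM and was not called.

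Bmp6, the ligand, was not called by edgeR in any comparison. It was called lower by DESeq2 in KO HFD-Pio than in KO Pio mice, mouse 13 included, at -1.03 on the log2 scale. Its level was 2.55 to 5.36 CPM in WT control, 2.27 to 4.18 in WT Pio, 1.70 to 3.60 in WT HFD and 1.62 to 4.21 CPM in WT HFD-Pio mice. In KO control mice it was 2.66 to 4.11 CPM and in the KO Pio mice other than mouse 13 it was 2.93 to 3.95 CPM, and mouse 13 was at 17.8 CPM. The log2 difference in KO Pio mice turned from 0.81 ± 0.35 (SE) with mouse 13 to -0.05 ± 0.25 (SE) without it.

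**Figure D3:**
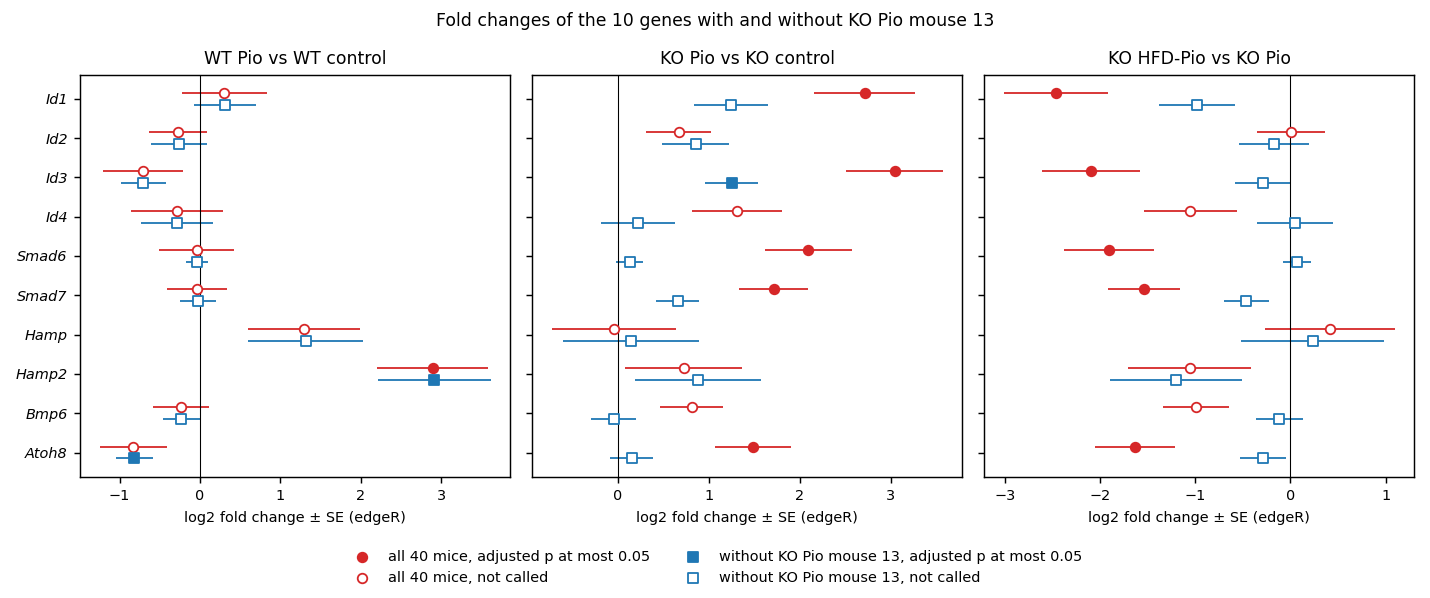
Log2 fold changes ± SE from edgeR for the 10 genes in 3 comparisons, with all 40 mice (circles) and without KO Pio mouse 13 (squares); filled symbols were called. Hamp2 stays at 2.89 and 2.92 in WT Pio mice, while in both panels with KO Pio mice the 5 called genes move towards 0 and Id3, at 1.25, is the gene still called in KO Pio against KO control mice.

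In KO HFD-Pio against KO Pio mice, Id1, Id3, Smad6, Smad7 and Atoh8 were called lower with all mice, at log2 differences of -2.46, -2.09, -1.90, -1.54 and -1.63. These 5 of 10 members stood beside 4.96% of all tested genes, and this comparison shares the KO Pio mice, mouse 13 included, with the comparison of KO Pio and KO control mice. Without mouse 13, edgeR called 0 of 10 members and 0.0931% of all tested genes, with 1 member at an unadjusted p under 0.05. That member was Id1, at -0.98 ± 0.40 (SE). Id4 and Smad6 then stood at 0.05 ± 0.40 and 0.07 ± 0.15 (SE), on the other side of 0 from their values with all mice. The call count was also 0 when any of KO HFD-Pio mice 16 to 20 was left out instead. It was also 0 when the KO mice were fitted alone, with 7 members at an unadjusted p under 0.05. With all mice, DESeq2 called 4 members lower, Id1, Smad7, Atoh8 and Bmp6, at -2.51, -1.58, -1.68 and -1.03 on the log2 scale. DESeq2 gave an adjusted p for 7 of the 10 members here. Limma with sample quality weights called 1 member, Id1, at -0.96.

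In WT HFD-Pio against WT HFD mice, edgeR called 0 of 10 members with all mice and without mouse 13, with 0 and 3 members at an unadjusted p under 0.05, beside 1.08% and 11.6% of all tested genes. DESeq2 and limma with sample quality weights also called 0. In WT HFD against WT control mice, edgeR called 0 members in either fit, with 0 and 1 at an unadjusted p under 0.05, beside 1.31% and 6.55%, and the other tools called 0. In WT HFD-Pio against WT Pio mice, edgeR called 0 members with all mice, 1 of them at an unadjusted p under 0.05, and 1 member, Atoh8, without mouse 13, beside 1.22% and 8.68%. DESeq2 called 0 there and limma called 1, Hamp2.

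In KO HFD against KO control mice, edgeR called 0 of 10 members in either fit, with 1 member, Hamp2, at an unadjusted p under 0.05 in each, beside 0.185% and 0.388% of all tested genes. In KO HFD-Pio against KO HFD mice it called 0 members in either fit, with 1 and 2 at an unadjusted p under 0.05, beside 0.0155% and 0%. DESeq2 and limma called 0 members in both of these comparisons. DESeq2 gave no adjusted p for Id3 and Smad6 in any comparison of all 40 mice.

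Of the differences between responses, that of Pio on control diet, KO minus WT, held 5 called members with all mice, Id1, Id3, Smad6, Smad7 and Atoh8, beside 7.87% of all tested genes. Without mouse 13 it held 1, Id3, beside 5.78%. It held 2 when WT control mouse 832, WT Pio mouse 842 or 845, or KO control mouse 1, 2 or 3 was left out, and 3 when WT Pio mouse 841 or 843, or KO control mouse 4 or 5 was left out. For the HFD response with Pio, KO minus WT, edgeR called 0 members, with 7 and 4 at an unadjusted p under 0.05 with and without mouse 13, beside 0.0155% and 0.00775%, and DESeq2 called 2 and limma 0. Leaving out WT Pio mouse 841 or KO Pio mouse 11 or 12 gave 1, 5 and 3 called members. For the Pio response on HFD minus that on control diet, edgeR called 0 and then 1 member, Id3, in WT mice, beside 0.0773% and 5.25%. In KO mice it called 0 in either fit, with 5 and 0 members at an unadjusted p under 0.05, beside 0% and 0%, and DESeq2 and limma called 0. For the Pio response on HFD, KO minus WT, edgeR called 0 members, 0 of them at an unadjusted p under 0.05 in either fit, beside 0.0927% and 0.163%. For the HFD response without Pio, KO minus WT, it called 0, with 0 and 1 at an unadjusted p under 0.05, beside 0.0618% and 1.05%. DESeq2 and limma called 0 members in the last pair of contrasts.

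Mouse 13 was the highest of all 40 mice for 7 of the 10 genes. Its level was 7.84-fold the highest of the other 39 mice for Id1, 10.8-fold for Id3, 8.96-fold for Smad6 and 5.61-fold for Atoh8. For Id4, Smad7 and Bmp6 the ratios were 4.39, 3.70 and 3.32. The hepcidin genes and Id2 did not share this: at 222, 51.5 and 39.7 CPM, Hamp, Hamp2 and Id2 were below the medians of the other 4 KO Pio mice, 518, 88.3 and 94.6 CPM. Over all tested genes, 316 (2.44%) were more than 3 log2 units above the median of those 4 mice, among them Id1, Id3, Smad6 and Atoh8.

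The difference of mouse 13 from its group followed the GC content of genes. Over 10 equal bins of the tested genes by GC content, the median log2 difference rose from -1.52 in the lowest to 2.06 in the highest bin, and Spearman's rho across genes, which are not independent replicates, was 0.539. Id1 and Id3 lie in the highest bin and exceeded its median, at 3.26 and 3.83 log2 units. Smad6, Atoh8, Smad7 and Id4 lie in bin 9, whose median was 1.34, and were at 4.00, 3.10, 2.77 and 2.58. Bmp6 lies in bin 5, whose median was -0.43, and was at 2.36. Smad6 exceeded 99.8% of all tested genes, Id3 99.7%, Id1 98.7% and Bmp6 92.3%. The part of GC content in the levels of these genes was not tested.

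**Figure D4:**
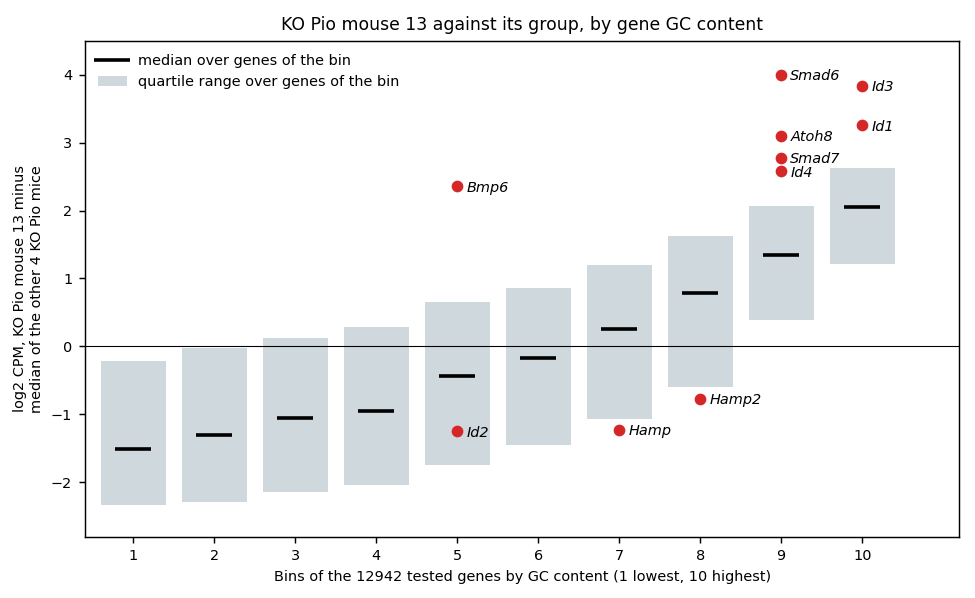
Log2 CPM of KO Pio mouse 13 minus the median of the other 4 KO Pio mice, in 10 equal bins of the tested genes ordered by GC content; bars are medians, boxes quartile ranges, and points the 10 genes. The medians climb from -1.52 to 2.06, and 7 of the genes lie above the box of their bin, while Id2, Hamp and Hamp2 lie below 0.

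Markers of other cell types that read or send BMP signals were compared beside these values. The summed level of 10 sinusoidal endothelial markers was 416 to 512 CPM in KO Pio mice, 365 to 465 CPM in KO control mice and 208 to 449 CPM in WT Pio mice against 230 to 384 CPM in WT control mice, and all these ranges overlapped within a genotype. The summed level of 7 Kupffer cell markers was 229 to 443 CPM in KO Pio and 250 to 551 CPM in KO control mice, and that of 7 stellate cell markers 134 to 252 and 149 to 240 CPM. In WT Pio mice, 2 of the 3 adipocyte markers tested, Cidea and Retn, were called higher, and the 6 markers summed to 74.7 to 273 CPM against 12.1 to 18.0 CPM in WT control mice, while the defining markers Adipoq and Lep stayed near 0. The 5 blood cell markers summed to 402 to 1018 CPM in WT Pio and 302 to 2029 CPM in WT control mice. Of them, 1, Alas2, was called lower, by 0.87 ± 0.26 (SE) on the log2 scale. Calls in this comparison covered 3.91% of all tested genes. The 6 pancreatic acinar markers summed to 141 CPM in mouse 13 and 667 CPM in KO HFD mouse 10, against at most 25.6 CPM in the 6 groups without these mice. Their part in the members' levels was not tested.

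Levels were also compared from mouse to mouse within groups. The log2 level of each gene was taken as its deviation from the mean of its group, and Id1 was set against the other 9 genes in WT and in KO mice, in 18 pairs. The levels of each mouse were known when the genes were chosen, so these correlations are a description, and their permutation p-values are no independent test. In KO mice Id1 and Id3 had a Pearson's r of 0.937 and a Spearman's rho of 0.899 over 20 mice, and 0.772 and 0.707 over 19 mice without mouse 13. Leaving out the 2 mice farthest from the median of Id1, mouse 13 and KO control mouse 5, and taking deviations from the means of the remaining mice gave r = 0.747.

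In KO mice with mouse 13, r with Id1 was 0.846 for Smad6, 0.852 for Smad7, 0.812 for Bmp6, 0.799 for Atoh8 and 0.788 for Id4, and without mouse 13 these fell to 0.224, 0.402, 0.237, 0.219 and 0.267. In WT mice r was 0.534 for Id3 and 0.506 for Smad7. Hamp and Hamp2 had r of 0.285 and -0.279 with Id1 in WT mice, and -0.0275 and -0.357 in KO mice. Without mouse 13 these KO values were 0.378 and -0.489. For Id2, r was -0.0502 in WT mice and -0.187 in KO mice, and 0.588 in KO mice without mouse 13. All values of a mouse share a library and its depth.

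**Figure D5:**
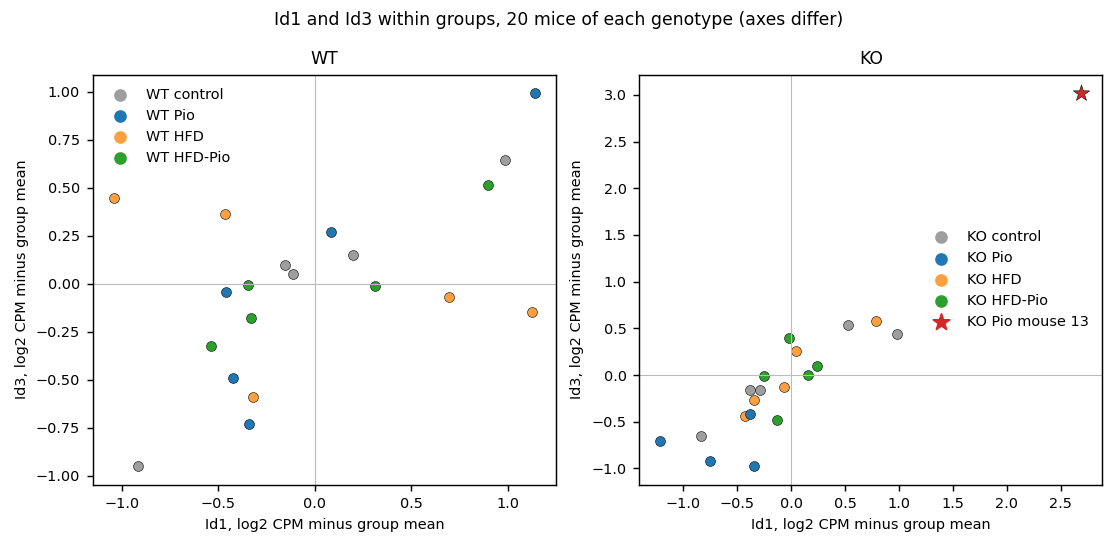
Id1 (horizontal) against Id3 (vertical) as deviations of log2 CPM from the group mean, for 20 WT mice on the left and 20 KO mice on the right, with axes that differ and KO Pio mouse 13 as a star. The KO points rise together, with r = 0.937 with mouse 13 and 0.772 when it is left out, and the WT points scatter more, with r = 0.534.

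Over all 40 mice, the 5 genes whose within-group pattern was most like that of Id1, among 9280 genes whose mean level reached 5 CPM, were Mxra8 (r = 0.836), Ramp2 (0.834), Cnn2 (0.810), Id3 (0.801) and Igfbp7 (0.799). Without mouse 13, among 9246 genes in 39 mice, they were Cnn2 (0.720), Ramp2 (0.691), Mxra8 (0.689), Gdf2 (0.687), which encodes the ligand BMP9, and Esam (0.675). Id3 was then at rank 19 (0.615), Smad7 at rank 210 (0.478) and Hamp at rank 1066 (0.320). These are descriptions over genes that share libraries.

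The other genes of the pathway were described from 8 lists that hold ligands, receptors, SMADs, antagonists, ID partners, iron genes, IL-6 response genes and immediate early genes. In WT Pio against WT control mice with all mice, 1 of 13 tested ligand genes was called higher, 1 of 14 receptor genes higher, 1 of 14 iron genes lower and 1 of 12 immediate early genes lower. None of the 10 SMAD genes, 3 ID partner genes and 12 IL-6 response genes was called there. Of all tested genes, 3.91% were called in this comparison. The called ligand gene was Bmp7, at 10.1 ± 3.86 CPM in Pio against 4.80 ± 1.80 CPM in control mice (SD, n = 5), a log2 rise of 1.07 ± 0.30 (SE). The called receptor gene was Rgma, a BMP co-receptor, up by 1.56 ± 0.37 (SE) on the log2 scale. Ftl1, the ferritin light chain gene, fell by 0.93 ± 0.18 (SE) on the log2 scale. Atf3, a stress-responsive transcription factor gene, fell by 3.08 ± 0.73 (SE). It was also lower in WT HFD than in WT control mice, at a log2 difference of -3.37 ± 0.76 (SE). Both comparisons share the WT control mice, in which its SD exceeded its mean, at 16.3 ± 26.9 CPM (SD, n = 5). WT Pio and WT HFD mice, at 1.92 ± 0.59 and 1.58 ± 0.59 CPM (SD, n = 5 each), both overlapped with them. Bmp7, Rgma, Ftl1 and Atf3 were called with and without mouse 13. Without it, Gdf15 (-1.76), Acvrl1 (-0.44) and Hfe (-0.35) were also called lower and Bmpr2 (0.45) higher on the log2 scale. In that fit 15.6% of all tested genes were called in WT Pio against WT control mice.

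Inhbc is an activin subunit gene expressed mainly in liver. In WT HFD against WT control mice it was the called ligand gene, 1 of 13 tested, beside 1.31% of all tested genes. It rose from 97.0 ± 28.4 CPM in WT control to 211 ± 49.5 CPM in WT HFD mice (SD, n = 5), by 1.12 ± 0.20 (SE) on the log2 scale. In WT HFD-Pio mice it was 117 ± 13.5 CPM (SD, n = 5), lower than in WT HFD mice by 0.85 ± 0.20 (SE) on the log2 scale. Every WT HFD mouse lay above every mouse of both other groups. Of all tested genes, 3.05% had no overlap between WT HFD and WT control mice, and 7.12% none between WT HFD-Pio and WT HFD mice. Inhba, the activin A subunit gene, was lower in WT HFD-Pio than in WT HFD mice by 1.19 ± 0.25 (SE) on the log2 scale, at 4.02 ± 1.30 against 9.13 ± 2.57 CPM (SD, n = 5). These were the 2 ligand genes called in WT HFD-Pio against WT HFD mice, beside 1.08% of all tested genes. No gene of the other 7 lists was called there with all mice.

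Without mouse 13, more pathway genes were called in WT HFD-Pio against WT Pio mice. So were more of all tested genes, at 8.68% against 1.22% with all mice. Smad1 and Smad2, which carry BMP and TGF-β signals, were lower by 0.84 ± 0.23 and 0.42 ± 0.12 (SE) on the log2 scale. Inhbc, Gdf15, Hfe, the iron exporter gene Slc40a1 and Ftl1 were higher, by 0.61 ± 0.16, 1.70 ± 0.50, 0.37 ± 0.10, 0.53 ± 0.14 and 0.57 ± 0.17 (SE). Ireb2, an iron regulatory protein gene, was higher in WT HFD-Pio than in WT HFD mice by 0.85 ± 0.15 (SE) in the same fit. Rgma was also called higher there, by 1.36 ± 0.32 (SE), with overlapping groups, beside 11.6% of all tested genes.

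In KO Pio against KO control mice, the same lists followed mouse 13. With it, 3 ligand genes were called higher (Tgfb1, Bmp2 and Gdf15) and 2 lower (Tgfb3 and Inhbc), 3 receptor genes higher (Eng, Hfe2 and Acvr2b), 1 antagonist gene higher (Bambi), the ID partner gene Tcf3 and the ferritin heavy chain gene Fth1 higher, and 5 of 12 immediate early genes higher (Fos, Junb, Ier2, Zfp36 and Dusp1). Of all tested genes, 9.01% were called with mouse 13. Without it, 2 genes of all 8 lists were called, beside 0.512% of all tested genes. Inhbc was lower by 0.99 ± 0.18 (SE) on the log2 scale, at 51.7 ± 12.3 CPM (SD, n = 4) against 104 ± 15.2 CPM (SD, n = 5), with no overlap. Fos, an immediate early gene, was higher by 2.42 ± 0.51 (SE), at 21.7 ± 15.2 CPM (SD, n = 4) against 4.05 ± 4.04 CPM (SD, n = 5), with no overlap. Of all tested genes, 3.7% had no overlap in this comparison with mouse 13, and the share without it was not counted. The median log2 difference of the 12 immediate early genes was 0.77 without mouse 13, against 0.01 over all tested genes. In KO HFD-Pio against KO Pio mice, 5 genes of the lists were called lower with mouse 13, beside 4.96% of all tested genes. They were Gdf15, Bambi, Tcf3, Fth1 and the SMAD corepressor gene Ski. Without mouse 13, no gene of the 8 lists was called by edgeR, beside 0.0931% of all tested genes.

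In KO HFD against KO control mice, 0.185% of all tested genes were called. The acute-phase genes Saa2 and Orm2 were called higher there, by 6.93 ± 1.51 and 5.25 ± 1.06 (SE) on the log2 scale. Their SDs exceeded their means, at 2909 ± 6199 and 583 ± 1235 CPM (SD, n = 5), in the group that holds KO HFD mouse 9. With all mice, Orm2 was also called lower in KO HFD-Pio than in the same KO HFD mice, at a log2 difference of -5.64 ± 1.08 (SE). That comparison held 0.0155% of all tested genes called with all mice and 0% without mouse 13. A fit without KO HFD mice 9 and 10 and KO Pio mouse 13 was a choice made after seeing the data. It called 1 member (Id3) in KO Pio against KO control mice and 2 (Atoh8 and Hamp2) in WT Pio against WT control mice.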

How the data were processed

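Poly-A RNA of whole liver from 40 mice was sequenced. The authors aligned reads to GRCm38 with STAR 2.0.4b and deposited gene counts from featureCounts 1.4.5 (Subread), taken from uniquely aligned, unambiguous reads, in a WT and a KO table; the deposited percent GC content of each gene came with them. Lines repeated in a table held identical counts and were used once. Genes in both tables (40594) were kept, 355 rRNA genes were removed, and the 12942 genes that reached 1 CPM in 5 or more mice entered the tests (12895 without KO Pio mouse 13). The median depth was 23083121 counts in WT and 24703923 in KO mice; these counts limit the precision of low genes such as Id4.

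CPM values were scaled by TMM factors. The 8 group means were fitted jointly by edgeR 4.0.16 (R 4.3.3) with robust quasi-likelihood tests, and p-values were adjusted by Benjamini-Hochberg within each of 8 comparisons and 6 differences between responses. SEs are the fold change over the root of F. The script was tested on simulated counts with known changes. DESeq2 1.42.0 and limma 3.58.1 with sample quality weights, the method of the study, were alternatives, as were another normalization, no filter, each genotype alone, and leaving out each mouse. Correlations within groups were taken on log2 CPM (prior count 2), each with 100000 permutations. Promoters are from RefSeq (GRCm38.p6) and positions from GENCODE M21.

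The members and lists were chosen with earlier results of these data known. All members are named. Pathway genes are named where called within a genotype, at most 8 of a list by the smallest adjusted p, and the 5 genes most like Id1 are named. A pathway gene is not reported here. Mice are separate animals.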

Additional observations from a re-analysis of the deposited data

Results flagged for a closer look

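In 17 of the 80 sets of 5 mice (10 genes in 8 groups), the highest mouse stood off from the rest by more than Dixon's critical ratio of 0.71. That ratio's rate of about 1 in 20, for either end, holds for independent, normally distributed values. CPM levels of genes from the same mice need not be so, and no comparison with chance is drawn. KO Pio mouse 13 accounted for 7, at 119 CPM for Id1, 489 for Id3, 6.14 for Id4, 107 for Smad6, 111 for Smad7, 17.8 for Bmp6 and 287 for Atoh8. Its GC-dependent profile is given with the results above.

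The other 10 were spread over 8 mice. WT Pio mouse 844 was high for Id1, 13.4 CPM, and Atoh8, 28.5 CPM, and WT HFD-Pio mouse 840 for Id2, 127 CPM, and Smad7, 29.9 CPM. Smad6 was high in KO HFD-Pio mouse 19, 8.97 CPM, and Smad7 in KO control mouse 4, 15.3 CPM. Hamp was high in KO control mouse 5, 1003 CPM, and Hamp2 in KO HFD-Pio mouse 17, 83.0 CPM. Bmp6 was high in WT control mouse 832, 5.36 CPM, and in WT Pio mouse 842, 4.18 CPM.

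The Pio response on control diet differed between genotypes (KO minus WT, log2 scale, called by edgeR) for Id1 by 2.41, Id3 by 3.75, Smad6 by 2.14, Smad7 by 1.75 and Atoh8 by 2.31. Without mouse 13 it differed for Id3, by 1.96. In the same fit the Pio response of Id3 differed between HFD and control diet in WT mice, by 1.48, a difference that edgeR did not call on the WT mice alone.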

How the results depend on the processing

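Counts of called members with all 40 mice changed as follows. WT Pio against WT control, 1 with edgeR: limma with sample quality weights 3, WT mice alone 2, 37 mice 2, each mouse left out in turn 1 to 2. WT HFD-Pio against WT Pio, 0: limma 1, 37 mice 1, each mouse left out 0 to 1. KO Pio against KO control, 5: DESeq2 3 (Id1, Smad7 and Atoh8, with no adjusted p for Id3 and Smad6), KO mice alone 0, 37 mice 1, each mouse left out 1 to 7, the 1 being without mouse 13. KO HFD-Pio against KO Pio, 5: limma 1, no filter 1, KO mice alone 0, 37 mice 0, each mouse left out 0 to 6, with 0 when mouse 13 or any of KO HFD-Pio mice 16 to 20 was left out. Pio on control diet, KO minus WT, 5: DESeq2 3 (the same genes, again with no adjusted p for Id3 and Smad6), limma 3, no filter 2, 37 mice 1, each mouse left out 1 to 5, with 2 or 3 for the 10 mice named above. HFD with Pio, KO minus WT, 0: DESeq2 2, each mouse left out 0 to 5, with 1, 5 and 3 without WT Pio mouse 841 and KO Pio mice 11 and 12. Pio on HFD minus control diet in WT, 0: 37 mice 1, each mouse left out 0 to 1. No count moved by over 1.5 times under DESeq2's size factors in edgeR, nor did those of the other comparisons under any alternative. The 37 mice, without KO HFD mice 9 and 10 and KO Pio mouse 13, were chosen after seeing the data.

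Signs turned, for values larger than their SE with all mice, only where mouse 13 was left out or weighted down: Bmp6 in KO Pio (limma -0.0886, 37 mice -0.0460, each mouse left out -0.0462 to 0.995), Id4 in KO HFD-Pio against KO Pio (37 mice 0.0471, each mouse left out -1.31 to 0.0468), Smad6 there (limma 0.0510, 37 mice 0.0716, each mouse left out -2.19 to 0.0717), Bmp6 in limma for Pio on control diet, KO minus WT (-0.0284) and HFD with Pio, KO minus WT (0.0598), and Smad6 for Pio on HFD minus control diet in KO (limma 0.00795, 37 mice 0.0323, each mouse left out -2.24 to 0.0120). Apart from mouse 13, the cause of these changes was not tested. Of 9 members set against Id1 in KO mice, 1 was at an adjusted permutation p of at most 0.05, and 0 without the 2 mice farthest from the median of Id1; with the levels known beforehand this is no independent test. No paired analysis was possible because mouse numbers are not shared between groups.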
